A study of Mus musculus with 16 samples.

Results

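The receptors of the epidermal growth factor (EGF) family that small intestinal organoids expressed (Egfr, Erbb2 and Erbb3), 5 of their ligands (Areg, Ereg, Hbegf, Tgfa and Btc) and the receptor's feedback inhibitor Errfi1 were followed as 9 genes, chosen by name from the 49585 genes of the count table. All 9 were among the 12559 genes with enough reads to be tested. RNA was sequenced from 16 cultures in 4 groups of 4. Organoids were grown from small intestinal crypts of Atg16l1 fl/fl mice, which carry the floxed alleles without Cre and keep Atg16l1, or of Atg16l1 ΔIEC mice, which carry the same floxed alleles and villin-cre and thereby lose Atg16l1 in intestinal epithelial cells. The mice were 8 to 12 weeks old and had been backcrossed onto C57BL/6. Cultures of each genotype were left untreated or received recombinant murine IL-22 at 10 ng/ml for 24 h. Every culture, the untreated ones included, grew in a medium that contains murine EGF, Noggin and R-Spondin 1, so that the receptors had a ligand from outside in all 4 groups. Each genotype was represented by 2 organoid lines according to the labels. A line gave 2 cultures to each treatment, numbered 1 and 2 for the first line and 3 and 4 for the second, and p-values measure the spread between cultures of these lines.

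The 4 ErbB receptors work in pairs. EGF family ligands are made as membrane proteins, cut loose at the cell surface by ADAM proteases, and bound by EGFR, ERBB3 or ERBB4. ERBB2 has no known soluble ligand, and ERBB3 has little kinase activity of its own and signals through a partner. Active receptors switch on the RAS-ERK and PI3K-AKT routes, and in the crypt EGF family ligands keep stem and progenitor cells dividing. ERRFI1 (MIG6) binds the kinase domain of the active receptor and shuts it off, and its gene is itself switched on by the pathway.

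Reads counted on genes ranged from 2135000 to 5574860 per culture, and levels are given as CPM (gene counts scaled to a common library total, with TMM factors from edgeR) or, between genes, as RPKM (the same per kilobase of exon). Atg16l1 was counted at 31.5 to 51.6 CPM in the fl/fl cultures and at 0.288 to 5.95 CPM in the ΔIEC cultures. The epithelial markers Epcam, Vil1, Cdx2, Cdh1, Krt8, Krt18, Krt19 and Hnf4a were high in every culture, with Epcam at 1270.3 to 1642 CPM. Of 8 immune and 8 stromal marker genes, Cd3e had no count in any culture, Ptprc had at most 1 and Col1a1 at most 3, whereas Csf1r had 20 to 58 counts, Cd74 5 to 326 and Cd68 1 to 24. In RNA from whole cultures, fewer cells of a type and less RNA per cell cannot be told apart.

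Areg, which encodes amphiregulin, was the most abundant of the 9 genes per length in every group. In fl/fl organoids its level was 237.5 ± 74.2 RPKM (SD, n = 4) without and 640.3 ± 109 RPKM with IL-22. In ΔIEC organoids it was 147 ± 39.6 and 353 ± 111 RPKM. Its lowest culture stood above the highest culture of the next gene, Erbb3, in each of the 4 groups. Erbb3 followed at 33.1 ± 1.37 to 63.9 ± 2.10 RPKM, and in the treated groups its cultures overlapped those of Errfi1. Erbb2 came after Erbb3 and Errfi1 in every group, at 21.7 ± 0.988 to 26.7 ± 1.74 RPKM, and in the untreated groups its cultures overlapped those of Errfi1. Btc was next at 10.4 ± 2.19 to 22.4 ± 1.16 RPKM. Tgfa, Hbegf, Ereg and Egfr made up the lower end, and most neighbours among them did not differ beyond their spread. Egfr was last in untreated fl/fl organoids (3.87 ± 0.715 RPKM), and Ereg was last in untreated ΔIEC organoids (1.70 ± 1.18 RPKM). Areg stayed first when the longest annotated transcript served as the gene length or the library total as the scale. With the longest transcript, Errfi1 (70.7 RPKM) came ahead of Erbb3 (63.9 RPKM) in treated fl/fl organoids.

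**Figure D1:**
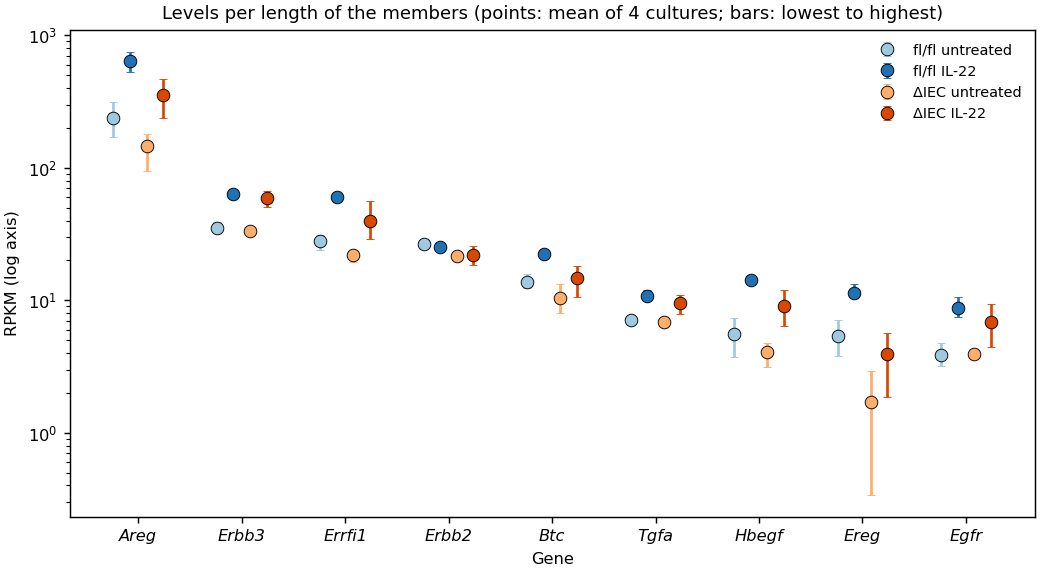
Mean RPKM of the 9 genes on a log axis (points, n = 4 cultures) with the lowest and highest culture (bars), for the 4 groups, in the order of untreated fl/fl organoids. Areg sits at 147 to 640.3 RPKM and the other ligands between 1.70 and 22.4 RPKM.

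Areg also made up most of the ligand transcripts. Of the RPKM summed over the 5 ligands, Areg took 86.2% to 89.4% in the untreated fl/fl cultures and 90.5% to 92.5% in the treated ones. In ΔIEC cultures its share was 83.8% to 88.0% untreated and 89.6% to 91.5% with IL-22, so that treated and untreated cultures did not overlap in either genotype. Btc was the next ligand, at 3.27% ± 0.537 of the sum in treated fl/fl and 6.21% ± 0.845 in untreated ΔIEC organoids. Tgfa made up 2.82% ± 0.804 of the sum in untreated and 1.56% ± 0.213 in treated fl/fl organoids, while its own level was higher with IL-22. The summed level of the 5 ligands was 197 to 350.2 RPKM in untreated and 580.4 to 804 RPKM in treated fl/fl cultures, against 112 to 204 and 266 to 513 RPKM in ΔIEC cultures. With the longest transcript as length, the share of Areg was 79.6% to 90.5% over the 16 cultures.

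Of the other receptor and ligands of the family, 6 of 7 had few or no counts. Erbb4, which encodes the remaining receptor, and the neuregulin gene Nrg3 had 0 counts in all 16 cultures, Nrg1 and Nrg2 had at most 1, Epgn (epigen) at most 2 and Egf at most 6 per culture. Counts of this size cannot show a difference between groups at this depth. Nrg4, a ligand of ERBB4, was the one gene of these 7 that could be tested, with 23 to 75 counts in a culture, and in untreated ΔIEC organoids it stood above Ereg per length (2.87 against 1.70 RPKM). It was counted at 13.4 to 15.5 CPM in untreated and 9.08 to 11.96 CPM in treated fl/fl cultures, and at 16.8 to 17.8 and 10.5 to 15.6 CPM in ΔIEC cultures. The treated cultures were all below the untreated ones in both genotypes, but the log2 fold changes of -0.46 (SE 0.15, edgeR adjusted p = 0.0255) and -0.48 (SE 0.15, adjusted p = 0.0211) did not pass the threshold of 0.01.

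IL-22 raised most of the family in both genotypes. In fl/fl organoids 7 of the 9 genes were higher past an adjusted p of 0.01 in edgeR's quasi-likelihood test (Egfr, Erbb3, Areg, Hbegf, Tgfa, Btc and Errfi1) and none was lower, where 10.6% of all 12559 tested genes were called higher and 10.2% lower. In ΔIEC organoids 6 of 9 were higher (the same genes without Btc) and none lower, where 9.83% of all genes were called higher and 7.65% lower. The median log2 fold change of the 9 genes was 1.04 in fl/fl and 0.82 in ΔIEC organoids, against -0.05 and -0.01 over all tested genes. Treated and untreated cultures did not overlap, with the treated ones above, for 8 of 9 genes in fl/fl (15.5% of all genes) and for 6 of 9 in ΔIEC organoids (14.1% of all genes). When the cultures of a line were summed, which leaves 2 samples a group, 2 of 9 (Erbb3 and Errfi1) were called higher in fl/fl organoids, where 2.57% of the 13871 genes tested in that design were, and 1 of 9 (Erbb3) in ΔIEC organoids, where 2.78% were. Erbb2 was called in neither genotype.

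**Figure D2:**
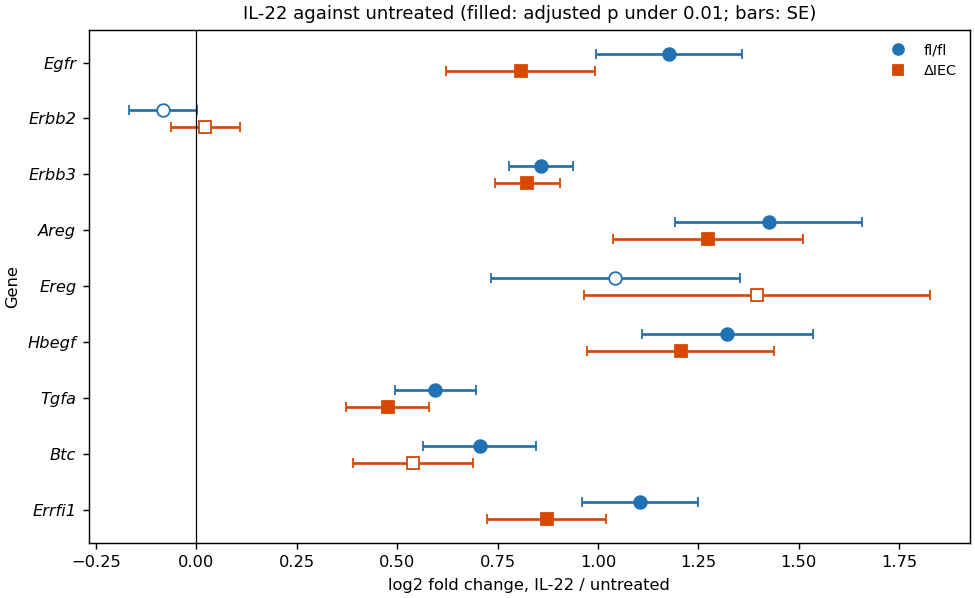
Log2 fold change of IL-22-treated over untreated organoids (x axis) for each of the 9 genes, with its standard error, in fl/fl (circles) and ΔIEC (squares). Filled symbols have an adjusted p under 0.01. Erbb2 lies at 0 within its error and the others lie between 0.48 and 1.42.

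Egfr encodes the receptor that all 5 of these ligands bind and is found on chromosome 11 of GRCm38 (plus strand, chr11:16752203-16918158). It was counted at 53.8, 46.8, 38.8 and 35.9 CPM in untreated fl/fl replicates 1 to 4, and at 103, 119, 84.8 and 91.8 CPM with IL-22. In ΔIEC organoids the values were 40.9, 45.8, 48.9 and 43.4 CPM untreated and 64.2, 50.1, 107 and 90.6 CPM with IL-22. Every treated culture was above every untreated culture of its genotype, and within treated ΔIEC organoids the first line stayed far below the second. Egfr rose by 1.18 on the log2 scale (SE 0.18, adjusted p = 5.66e-05) in fl/fl and 0.81 (SE 0.19, adjusted p = 0.00257) in ΔIEC organoids. The ΔIEC call rested on the second line. Without that line the log2 fold change was 0.35 (adjusted p = 0.284). It was also lost without untreated ΔIEC replicate 1 (adjusted p = 0.0116), treated replicate 3 (adjusted p = 0.0137) or treated replicate 4 (adjusted p = 0.0123).

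Erbb3, whose protein recruits PI3K when paired with another receptor, maps to chromosome 10 (minus strand, chr10:128567523-128589652) and had the smallest standard errors of the genes that rose. Untreated fl/fl cultures had 198 to 233 CPM and treated ones 367 to 397 CPM. Untreated ΔIEC cultures had 188 to 206 CPM and treated ones 306 to 399 CPM. The groups were wide apart in both genotypes, with log2 fold changes of 0.86 (SE 0.08, adjusted p = 1.24e-07) and 0.82 (SE 0.08, adjusted p = 2.10e-07). Erbb3 was the gene still called in ΔIEC organoids when the second ΔIEC line was left out, and it kept its call under each of the other alternatives as well.

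Erbb2, the receptor that serves as the preferred partner of the others, maps to chromosome 11 (plus strand, chr11:98412470-98437716). It was counted at 130.4 to 152 CPM in untreated and 128 to 138 CPM in treated fl/fl cultures, and at 109 to 120.4 and 95.7 to 133 CPM in ΔIEC cultures. The groups overlapped in both genotypes. The log2 fold change was -0.08 (SE 0.08, 95% interval -0.25 to 0.08, adjusted p = 0.482) in fl/fl and 0.02 (SE 0.09, 95% interval -0.15 to 0.19, adjusted p = 0.886) in ΔIEC organoids, so a change as large as that of Egfr or Erbb3 lay outside both intervals. Mien1, on the other strand, overlaps Erbb2 and had 93 to 252 counts, and the strand setting of the counting is not given in the sources used here.

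Among the ligands, Areg had the largest fold change in fl/fl organoids. It maps to chromosome 5 (plus strand, chr5:91139599-91148432). Untreated fl/fl replicates 1 to 4 had 381, 351, 207 and 216 CPM and treated ones 903, 879, 638 and 691 CPM. Untreated ΔIEC replicates had 114, 169.9, 217 and 214 CPM and treated ones 339.5, 290.5, 570.0 and 516 CPM. The treated cultures were above the untreated ones in both genotypes, and in fl/fl organoids the first line was the higher one before and after treatment, whereas in ΔIEC organoids it was the lower one. The log2 fold change was 1.42 (SE 0.23, adjusted p = 9.82e-05) in fl/fl and 1.27 (SE 0.24, adjusted p = 3.72e-04) in ΔIEC organoids. Without the second ΔIEC line the ΔIEC value was 1.12 (adjusted p = 0.0102).

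Sequences are shown for Areg and the feedback gene Errfi1. The RefSeq promoter windows of both (GRCm38.p6, plus strand) hold the same pair of short motifs. Windows from 250 bases before to 50 after a RefSeq start site were searched for 6 of the 9 genes (7 windows, as Errfi1 has more than 1 start). Hbegf was left out of the search, and Ereg and Erbb3 had no usable window. The 250 bases before the start site of Areg are chr5:91139349-91139598 and those before the inner start site of Errfi1 are chr4:150854820-150855069, which lies in the first intron of the longer annotated Errfi1 transcripts. Capitals mark the CRE motif TGACGTCA, the element that CREB family factors bind, and the TATA motif TATAAA.
Areg: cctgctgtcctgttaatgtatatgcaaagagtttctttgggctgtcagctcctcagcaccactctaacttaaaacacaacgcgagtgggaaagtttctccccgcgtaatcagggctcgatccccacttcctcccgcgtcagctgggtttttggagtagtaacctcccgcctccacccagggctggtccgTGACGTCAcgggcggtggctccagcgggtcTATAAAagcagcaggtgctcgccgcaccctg
Errfi1: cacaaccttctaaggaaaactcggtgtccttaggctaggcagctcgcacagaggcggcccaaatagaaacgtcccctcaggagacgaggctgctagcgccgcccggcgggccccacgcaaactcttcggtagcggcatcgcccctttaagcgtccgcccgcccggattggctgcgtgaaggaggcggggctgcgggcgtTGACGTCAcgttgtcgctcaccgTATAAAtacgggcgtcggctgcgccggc
The CRE motif begins at position -61 and the TATA motif at -31 in Areg, and at -51 and -28 in Errfi1, counted from the start site. The CRE motif was present in 1.79% and the TATA motif in 13.6% of all 32851 windows of this length, with both strands searched. The windows of the other genes (Egfr, Erbb2, Tgfa and Btc) and the outer start of Errfi1 held neither. Of these genes, Egfr, Tgfa and Btc were also called higher with IL-22 in fl/fl organoids. The share of windows with both motifs was not counted, and a part of the motifs in the changes was not tested. No window of the 6 genes held the STAT motif TTCNNNGAA (8.30% of all windows), the AP-1 motif TGANTCA (7.81%) or the ETS motif CCGGAAGT (3.89%), and nothing about the factors follows from that.

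Hbegf encodes heparin-binding EGF, a ligand of EGFR and ERBB4, and maps to chromosome 18 (minus strand, chr18:36504927-36515805). It was counted at 35.8, 35.1, 18.0 and 18.9 CPM in untreated fl/fl replicates and at 71.8, 72.4, 66.0 and 65.3 CPM with IL-22. In ΔIEC organoids it was counted at 15.0, 18.1, 22.8 and 22.7 CPM untreated and at 30.7, 32.6, 54.5 and 58.3 CPM with IL-22. The fl/fl lines differed before treatment and were nearly level after it, while the ΔIEC lines lay further apart after treatment. Hbegf rose by 1.32 on the log2 scale (SE 0.21, adjusted p = 8.38e-05) in fl/fl and 1.21 (SE 0.23, adjusted p = 5.71e-04) in ΔIEC organoids, the latter at 0.90 (adjusted p = 0.0366) without the second ΔIEC line.

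Ereg (epiregulin) lies beside Areg on the plus strand of chromosome 5 (chr5:91074622-91093646) and was the gene with the fewest counts, 6 to 229 per culture. Untreated fl/fl replicates had 27.4, 29.5, 15.8 and 16.2 CPM and treated ones 54.5, 46.1, 42.8 and 44.4 CPM. Untreated ΔIEC replicates had 1.41, 4.66, 10.0 and 11.99 CPM and treated ones 10.9, 7.64, 23.5 and 22.8 CPM. The groups were apart in fl/fl organoids and overlapped in ΔIEC organoids, because the untreated second ΔIEC line was as high as the treated first one. The log2 fold changes of 1.04 (SE 0.31, adjusted p = 0.0140) and 1.40 (SE 0.43, adjusted p = 0.0196) missed the threshold. With the organoid line as a block, which compares treated and untreated cultures of the same line, Ereg was called in fl/fl (log2 fold change 1.07, adjusted p = 1.96e-07) and in ΔIEC organoids (1.24, adjusted p = 4.22e-05). The block raised the share of all genes called higher to 15% in fl/fl organoids and to 13.8% in ΔIEC ones. For ΔIEC, the call was also made without treated replicate 2 (adjusted p = 0.00534) or untreated replicate 4 (adjusted p = 0.00797). The antisense gene Gm19610 overlaps Ereg and had 1 to 36 counts.

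Tgfa, the gene of transforming growth factor α on the plus strand of chromosome 6 (chr6:86195223-86275719), showed the smallest called change. It was counted at 43.6 to 47.5 CPM in untreated and 64.3 to 78.0 CPM in treated fl/fl cultures, and at 43.0 to 47.6 and 51.0 to 71.2 CPM in ΔIEC cultures. Treated cultures were above untreated ones in both genotypes. Tgfa rose by 0.59 on the log2 scale (SE 0.10, adjusted p = 1.49e-04) in fl/fl and 0.48 (SE 0.10, adjusted p = 0.00157) in ΔIEC organoids. The ΔIEC call was lost without treated replicate 4 (adjusted p = 0.0102) and without the second line (0.27, adjusted p = 0.212), and with counts thinned to the smallest library (0.41, adjusted p = 0.0249).

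Btc (betacellulin), the third ligand gene of the chromosome 5 cluster (minus strand, chr5:91357261-91402994), was counted at 71.6, 63.3, 55.9 and 56.4 CPM in untreated fl/fl replicates and at 101, 101, 95.5 and 108 CPM with IL-22. In ΔIEC organoids it had 36.4, 43.4, 47.7 and 60.0 CPM untreated and 65.8, 47.8, 73.2 and 81.6 CPM with IL-22. The groups overlapped in ΔIEC organoids only. The log2 fold change was 0.71 (SE 0.14, adjusted p = 7.08e-04) in fl/fl and 0.54 (SE 0.15, adjusted p = 0.0105) in ΔIEC organoids. The fl/fl call was lost without the second fl/fl line (0.58, adjusted p = 0.0507). The ΔIEC change was called with the line as a block (0.51, adjusted p = 2.63e-04), without treated replicate 2 (adjusted p = 9.24e-04) and without untreated replicate 4 (adjusted p = 0.00277). Epgn, Ereg, Areg and Btc lie within 376 kb of chromosome 5. Of these neighbours, Areg reached 3776 counts in a culture, Btc 511, Ereg 229 and Epgn 2.

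Errfi1 on the plus strand of chromosome 4 (chr4:150853919-150868892) rose with the ligands. It was counted at 111, 109, 94.7 and 85.7 CPM in untreated fl/fl replicates and at 197, 217, 228 and 219 CPM with IL-22. In ΔIEC organoids it had 69.5, 80.4, 81.3 and 81.1 CPM untreated and 116, 105, 199.95 and 149 CPM with IL-22. The treated cultures were above the untreated ones in both genotypes, and replicate 1 was the low one among the untreated ΔIEC cultures. IL-22 raised it by 1.104 on the log2 scale (SE 0.14, adjusted p = 9.17e-06) in fl/fl and 0.87 (SE 0.15, adjusted p = 1.62e-04) in ΔIEC organoids, the latter at 0.52 (adjusted p = 0.0151) without the second ΔIEC line.

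**Figure D3:**
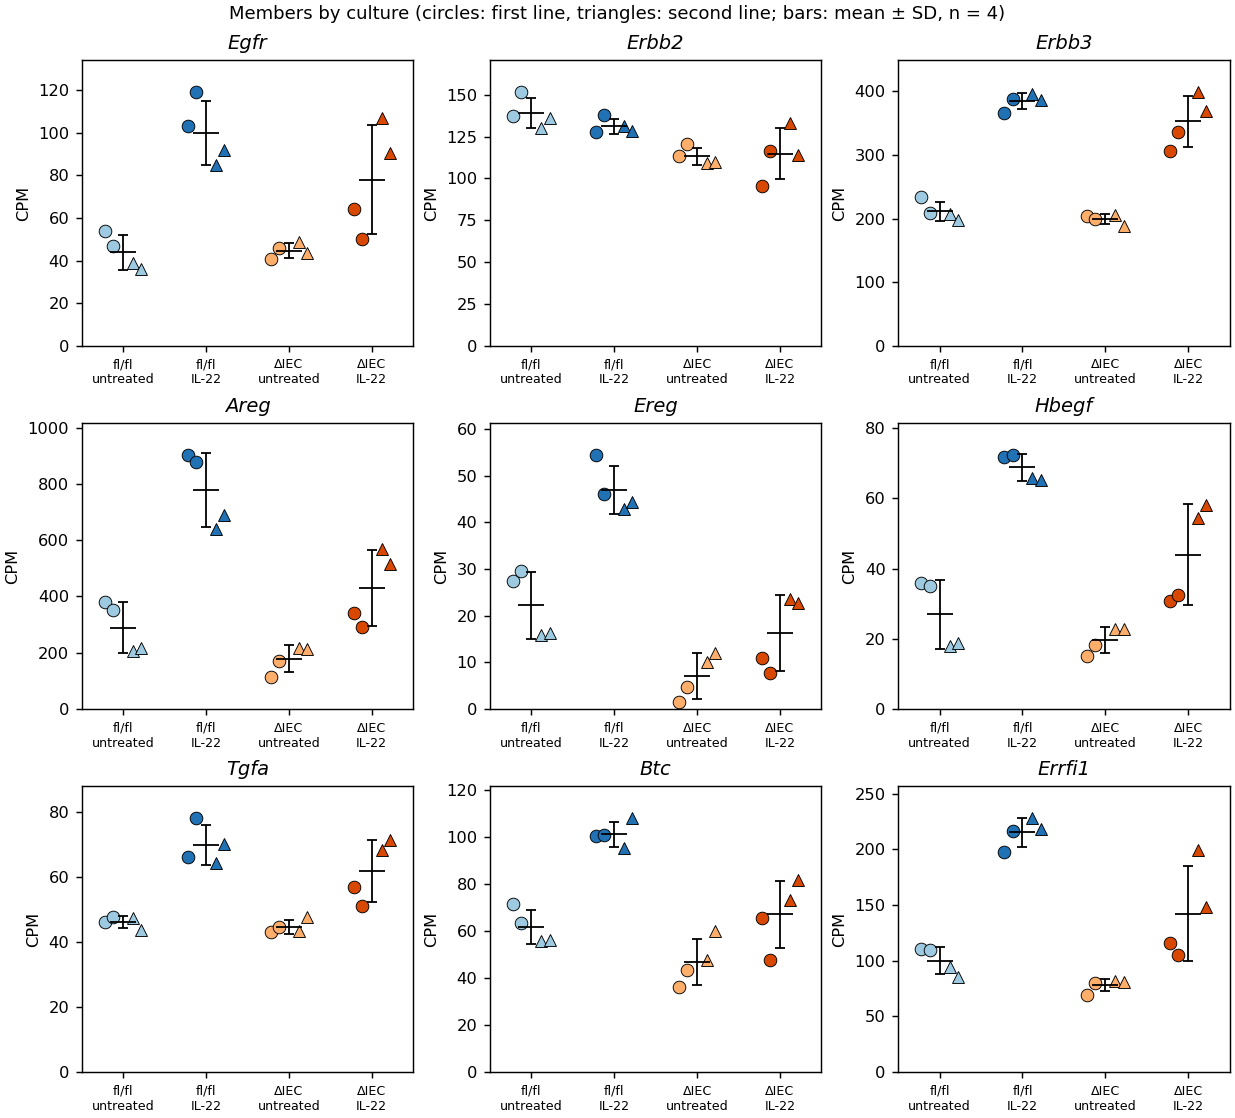
CPM of each of the 9 genes in every culture (y axis from 0) by group, with circles for the first and triangles for the second organoid line of a genotype, and mean ± SD (n = 4) in black. Treated cultures lie above untreated ones for Egfr, Erbb3, Areg, Hbegf, Tgfa and Errfi1 in both genotypes.

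The 4 lines could also be read one by one, 2 treated against 2 untreated cultures in each. For 8 of the 9 genes, both treated cultures were above both untreated cultures in all 4 lines, which held for 13.3% of all tested genes. Erbb2 was the exception, separated in 1 line. The size of the change varied between lines. Egfr changed by 1.13 and 1.23 on the log2 CPM scale in the fl/fl lines, by 1.08 in the second ΔIEC line and by 0.38 in the first ΔIEC line, which had 43.4 CPM untreated and 57.2 CPM with IL-22. The first ΔIEC line also had the smallest change of the 4 for Erbb3 (0.67), Areg (1.17), Hbegf (0.91), Tgfa (0.30), Btc (0.49) and Errfi1 (0.56). For Ereg it had the largest (1.59), from an untreated level of 3.03 CPM, where the other lines began at 11.0 to 28.4 CPM. The largest changes of Areg (1.65), Hbegf (1.80), Btc (0.85) and Errfi1 (1.30) were in the second fl/fl line, in which untreated Areg and Hbegf were 0.58 and 0.52 times those of the first fl/fl line.

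**Figure D4:**
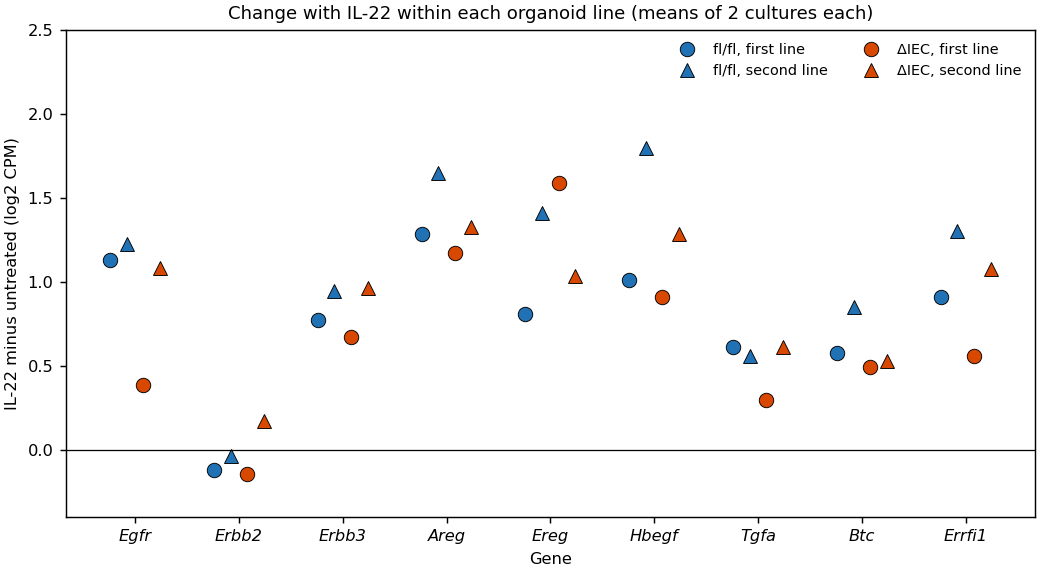
Difference of mean log2 CPM between IL-22-treated and untreated cultures (y axis, 2 cultures each) in each of the 4 organoid lines, by gene. Egfr lies at 0.38 in the first ΔIEC line and at 1.08 to 1.23 in the others, and Erbb2 lies between -0.14 and 0.17.

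Whether the response to IL-22 differed between genotypes was tested as the interaction in the same fit. None of the 9 genes passed (0 of 9, where 0.0159% of all genes, 2 of 12559, were called in either direction), and 0 of the 9 had an unadjusted p under 0.05, as 912 of all genes did. DESeq2's likelihood ratio test also called 0 of the 9. The difference in log2 fold change, ΔIEC minus fl/fl, was -0.37 for Egfr (SE 0.26, 95% interval -0.88 to 0.14, adjusted p = 0.825), -0.15 for Areg (SE 0.33, 95% interval -0.79 to 0.49, adjusted p = 0.977) and 0.35 for Ereg (SE 0.53, 95% interval -0.69 to 1.40, adjusted p = 0.951). The narrowest interval was that of Erbb3, -0.26 to 0.19 around -0.03.

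The levels themselves were compared between genotypes, where line and genotype cannot be told apart because each line belongs to 1 genotype. Without IL-22, Ereg alone of the 9 genes was called, lower in ΔIEC organoids (1 of 9, where 5.98% of all genes were called lower). It stood at 7.02 ± 4.86 CPM in ΔIEC against 22.2 ± 7.22 CPM in fl/fl organoids (n = 4 each), which is -1.86 on the log2 scale (SE 0.41, adjusted p = 0.00352). All ΔIEC cultures were below all fl/fl cultures for Ereg, Erbb2 and Errfi1 (3 of 9, against 12.6% of all genes), with uncalled log2 fold changes of -0.30 (SE 0.09, adjusted p = 0.0182) for Erbb2 and -0.37 (SE 0.15, adjusted p = 0.0927) for Errfi1. Areg was at -0.71 (SE 0.24, adjusted p = 0.0395) and Btc at -0.43 (SE 0.15, adjusted p = 0.0506), with overlapping groups. Egfr, Erbb3 and Tgfa lay within 0.09 of 0 on the log2 scale. The Ereg call depended on single cultures and lines. It was lost without untreated ΔIEC replicate 1 (adjusted p = 0.0158) or 2 (0.0182), without untreated fl/fl replicate 1 (0.0117) or 2 (0.0159), without the first ΔIEC line (-1.05, adjusted p = 0.0282) and without the first fl/fl line (-1.38, adjusted p = 0.0919). Areg was called without the second fl/fl line (-1.05, adjusted p = 0.00332), and Btc without the second ΔIEC line (-0.61, adjusted p = 0.00930).

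With IL-22, 4 of the 9 genes were lower in ΔIEC than in fl/fl organoids and none was higher, where 9.84% of all genes were called lower. Ereg stood at 16.2 ± 8.12 against 46.9 ± 5.19 CPM (-1.51, SE 0.32, adjusted p = 0.00158), Areg at 429 ± 135 against 778 ± 133 CPM (-0.86, SE 0.23, adjusted p = 0.00732), Btc at 67.1 ± 14.4 against 101 ± 5.25 CPM (-0.59, SE 0.14, adjusted p = 0.00320) and Errfi1 at 142 ± 42.6 against 215 ± 13.0 CPM (-0.60, SE 0.14, adjusted p = 0.00314). ΔIEC cultures were all below fl/fl cultures for Areg, Ereg, Hbegf and Btc (4 of 9, against 14.1% of all genes), and Errfi1 overlapped. Hbegf was at -0.63 (SE 0.20, adjusted p = 0.0208) and Egfr at -0.35 (SE 0.17, adjusted p = 0.125). The Ereg call held in every omission of a culture or line. The Areg call was lost without treated ΔIEC replicate 1 (adjusted p = 0.0277) or 2 (0.0317), treated fl/fl replicate 1 (0.0230) or 2 (0.0217), the first ΔIEC line (-0.52, adjusted p = 0.106) or the first fl/fl line (-0.66, adjusted p = 0.0385). The Btc call was lost without treated ΔIEC replicate 2 (adjusted p = 0.0136), treated fl/fl replicate 4 (0.0103), the first ΔIEC line (-0.39, adjusted p = 0.0319), or either fl/fl line (adjusted p = 0.0106 and 0.0168). The Errfi1 call was lost without treated ΔIEC replicate 1 (adjusted p = 0.0129) or 2 (0.0135), treated fl/fl replicate 3 (0.0111), the first ΔIEC line (-0.31, adjusted p = 0.0920) or the second fl/fl line (adjusted p = 0.0248), and in a fit of the compared groups alone (0.0111). Without the second ΔIEC line, Egfr (-0.84, adjusted p = 0.00179) and Hbegf (-1.14, adjusted p = 0.00109) were called lower as well, and Hbegf also without treated ΔIEC replicate 4 (adjusted p = 0.00940). With the cultures of a line summed, 0 of the 9 were called in either genotype comparison, where 0.0505% of all genes were called lower without and 0.952% with IL-22.

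**Figure D5:**
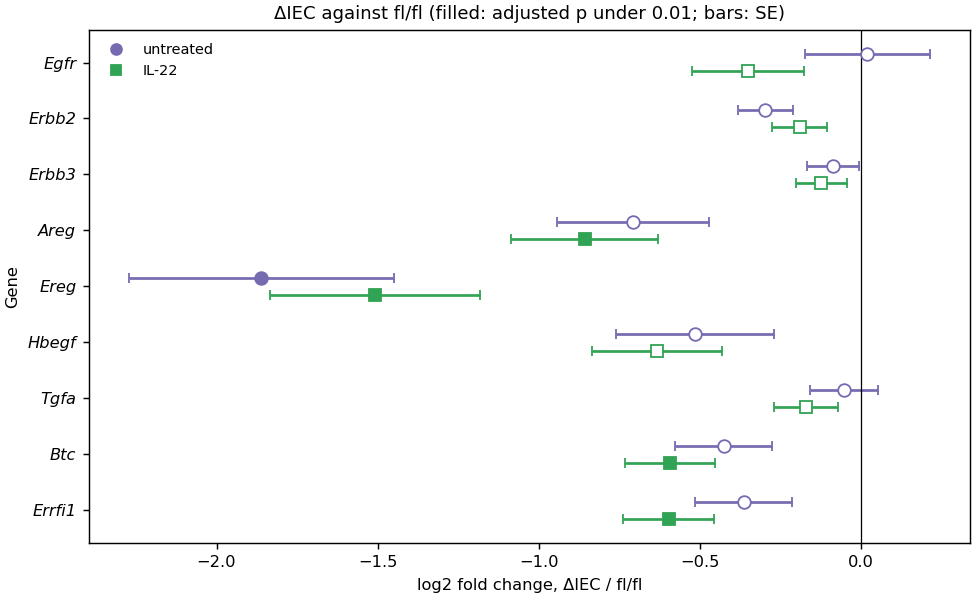
Log2 fold change of ΔIEC over fl/fl organoids (x axis) with its standard error for the 9 genes, untreated (circles) and with IL-22 (squares). Filled symbols have an adjusted p under 0.01. Ereg is lowest at -1.86 and -1.51, and Erbb3 lies at -0.09 and -0.12.

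Other genes of the pathway were followed from fixed lists, and the shares of all genes called with IL-22 were 10.6% higher and 10.2% lower in fl/fl, and 9.83% and 7.65% in ΔIEC organoids. Of 6 tested genes of ligand shedding, 2 rose with IL-22 in fl/fl and 3 in ΔIEC organoids, and none fell. Adam9 rose by 0.63 on the log2 scale (SE 0.09, adjusted p = 4.05e-05) in fl/fl and 0.85 (SE 0.10, adjusted p = 1.47e-06) in ΔIEC organoids. Adam10, the protease that releases betacellulin and EGF, rose by 0.45 and 0.41 (adjusted p = 2.83e-04 and 7.50e-04). Rhbdf2, which escorts ADAM17 to the cell surface, was called in ΔIEC organoids (0.63, adjusted p = 3.06e-04) and stood at 0.33 (adjusted p = 0.0208) in fl/fl organoids. Of 26 genes that carry the signal from the receptor, 7 rose and 1 fell in fl/fl organoids, and 6 rose and 1 fell in ΔIEC organoids. The kinase gene Akt2 rose by 0.74 (adjusted p = 1.19e-06) and 0.52 (adjusted p = 6.06e-05), and Nras by 0.56 (adjusted p = 1.64e-05) and 0.45 (adjusted p = 2.17e-04). Pik3r1, the regulatory subunit of PI3K, fell by 0.43 (adjusted p = 2.48e-04) and 0.68 (adjusted p = 1.49e-06).

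Genes that ERK signalling switches on, the immediate-early genes among them, formed another list. Of 17 tested, 11 rose and 1 fell in fl/fl organoids, with a median log2 fold change of 0.76, and 7 rose and 2 fell in ΔIEC organoids, with a median of 0.56. Ier3 rose by 1.76 (SE 0.15, adjusted p = 4.74e-08) in fl/fl and 1.22 (SE 0.16, adjusted p = 7.88e-06) in ΔIEC organoids, and the AP-1 subunit gene Fosl2 by 0.90 and 0.78 (adjusted p = 5.47e-06 and 3.54e-05). The ETS factor genes went the other way. Etv4 fell by 0.89 (SE 0.13, adjusted p = 2.46e-05) in fl/fl and 0.91 (SE 0.13, adjusted p = 2.34e-05) in ΔIEC organoids, and Etv5 fell by 0.74 (adjusted p = 5.67e-04) in ΔIEC and stood at -0.32 (adjusted p = 0.0879) in fl/fl organoids. Among 25 tested negative regulators, 6 rose and 1 fell in fl/fl, and 3 rose and 1 fell in ΔIEC organoids. The ERK phosphatase gene Dusp6 rose by 0.81 (adjusted p = 5.94e-04) and 0.64 (adjusted p = 0.00637), and its relative Dusp5 by 0.88 and 0.91 (adjusted p = 0.00308 and 0.00395). Dusp4 was called in fl/fl organoids (0.64, adjusted p = 8.26e-04) and stood at 0.19 (adjusted p = 0.337) in ΔIEC. Cblb, a ubiquitin ligase gene of the receptor, was called in ΔIEC (0.53, adjusted p = 0.00370) and stood at 0.14 (adjusted p = 0.456) in fl/fl organoids. Lrig1, which marks stem cells and restrains ErbB receptors, fell by 0.44 (adjusted p = 8.04e-05) and 0.46 (adjusted p = 5.23e-05). No gene of these lists passed the interaction test. Between genotypes, 1 of the 17 ERK-responsive genes was lower in untreated ΔIEC organoids (Egr1, at -0.55, SE 0.13, adjusted p = 0.00432), where 5.98% of all genes were. With IL-22, 6 of the 17 were lower in ΔIEC organoids, where 9.84% of all genes were. Ier3 (-0.73, SE 0.14, adjusted p = 7.21e-04) and Fosl2 (-0.40, SE 0.11, adjusted p = 0.00922) were among these 6. The median of the 17 genes with IL-22 was -0.45, against 0.01 over all tested genes.

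For scale, the STAT3 targets by which IL-22 acts in epithelium all rose (11 of 11 tested in both genotypes), Reg3b by log2 fold changes of 10.53 and 11.22 and Reg3g by 9.66 and 10.09 (edgeR adjusted p at most 5.98e-18). The genes whose log2 CPM followed a family member most closely over the 16 cultures are a description, since all share the treatment, the lines and the libraries. Pearson's r was 0.993 between Areg and F3 (tissue factor), 0.991 with Hs3st1 and 0.988 with Emp1. Hbegf also had F3 (0.985) and Emp1 (0.985) among its closest genes. Erbb3 was closest to Trim15 (0.985), Stat3 (0.984) and Dsg3 (0.984), and Egfr to Gm20186 (0.974), Dsg2 (0.974) and Sqstm1 (0.970). Tgfa was closest to Dsg2 (0.966), Osmr (0.959) and Klf6 (0.956), and Btc to the immediate-early gene Egr1 (0.963), Rap2b (0.960) and 4930539E08Rik (0.956). Errfi1 was closest to Antxr2 (0.983), Fosl2 (0.983) and Gm43305 (0.983). Within the family, Areg and Hbegf had the highest r (0.98), and Erbb2 had at most 0.55 with any other member.

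Markers of epithelial cell types moved with the same comparisons, and their part in the changes above was not tested. The summed level of 10 enterocyte markers was 3539 to 4133 CPM in untreated and 2022 to 2451 CPM in treated fl/fl cultures, and 3755 to 4339 against 2079 to 2503 CPM in ΔIEC cultures, with 6 and 4 of the 10 genes called lower with IL-22 (10.2% and 7.65% of all genes) and 1 higher. The summed level of 9 stem cell markers was 729 to 1006 CPM untreated and 504 to 573 CPM treated in fl/fl, and 1275 to 1453 and 644 to 791 CPM in ΔIEC cultures, with 2 and 4 of the 9 called lower. Between genotypes, 10 Paneth cell markers summed to 5621 to 7970 CPM in untreated fl/fl and 3172 to 4154 CPM in untreated ΔIEC cultures, and to 7103 to 9548 and 3925 to 4681 CPM with IL-22, with 6 and 7 of the 10 called lower in ΔIEC organoids. Of 8 goblet cell markers, 4 and 5 were called lower in ΔIEC organoids, and their sum was 2118 to 3347 against 1511 to 2013 CPM untreated. Of 8 enteroendocrine markers, 2 and 3 were called lower. Over all tested genes, 5.98% were called lower in ΔIEC organoids untreated and 9.84% with IL-22. Of the 9 stem cell markers, 3 were called higher in ΔIEC organoids in both states, and 1 and 2 lower. Of the 10 enterocyte markers, 1 and 3 were called higher and none lower. Over all 12559 tested genes, 475 were called higher in ΔIEC organoids untreated and 1245 with IL-22. Tuft cell markers had 0 of 2 tested genes called in these comparisons. Immune markers summed to 16.6 to 22.6 CPM in untreated and 44.0 to 69.8 CPM in treated fl/fl cultures, and to 13.2 to 29.4 and 22.1 to 114 CPM in ΔIEC cultures, with 1 of 4 tested genes (Cd74, chosen after its values were seen) called higher in each. Stromal markers summed to at most 6.77 CPM in any culture, and none of the 8 was tested.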

How the data were processed

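RNA was sequenced from 16 organoid cultures, 4 for each genotype and treatment, and groups and lines were taken from the sample labels. The authors trimmed reads with cutadapt, aligned them to GRCm38 (mm10) with TopHat2 and counted them per gene with HTSeq. The deposited values are these raw counts. The strand setting and the annotation release are not given in the sources used here, and the labels and the paper name different library kits (TruSeq RNA v2 and a stranded total RNA protocol). Table entries for reads outside genes, or on several genes or places, were not tested. Reads on genes were 36.3% to 38.3% of each culture's total. IDs were matched to GENCODE M21 without version (49326 of 49585, 99.5%), which gave positions and exon lengths.

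Tests used edgeR 4.0.16 in R 4.3.3: filterByExpr on the 4 groups, TMM scaling and two-sided quasi-likelihood tests on 1 fit of group means over all 12559 genes, with Benjamini-Hochberg adjustment over all of them and a threshold of 0.01 on the adjusted p. The common coefficient of variation was 0.115. SE is the absolute log2 fold change over the square root of F. Log2 CPM used a prior count of 2. RPKM used the union of exons. Alternatives were DESeq2 1.42.0, RLE scaling, no filter, counts thinned to the smallest library, cultures of a line summed, limma-voom (3.58.1) with correlation within lines (0.261), the line as a block, the compared groups alone, an adjusted p under 0.05, and each culture or line left out. For levels, they were the longest transcript and library totals. The steps were tested on simulated data. DESeq2 tested the interaction by a likelihood ratio test.

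The labels give treated and untreated cultures the same organoid line, and the fit with the line as a block and the line-by-line readings used this pairing. The main fit of group means held no term for the line. Deviations from group means correlated at 0.263 to 0.438 across genes between treated and untreated cultures of the same fl/fl line (-0.435 to -0.218 for different lines) and at 0.0563 to 0.321 in ΔIEC (-0.352 to -0.0779). The most alike replicate pair still differed beyond sampling noise (chi-square of 1.35 per degree of freedom). Among pairs from the same line, the treated first ΔIEC line differed most (7.34), followed by the untreated first fl/fl line (3.40).

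The members, lists, named-gene rule and alternatives were chosen with earlier results of these data known. Named genes are the 9 members, the 7 other ErbB receptors and ligands, the 2 lowest p-values among called genes of every pathway list, per direction and IL-22 comparison, Atg16l1, and the 3 genes most correlated with each member called with IL-22. Egr1 was named after its values were seen, and 1 gene that the rule names is not reported here. Lists were written from general knowledge, and Spry3 of the negative regulators was not found by symbol.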

Additional observations from a re-analysis of the deposited data

Results flagged for a closer look

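Errfi1 in untreated ΔIEC organoids was singled out because replicate 1 lay apart from the other 3 cultures: it had 69.5 CPM against 80.4, 81.3 and 81.1 CPM, and its gap to the nearest culture was 0.928 of the group's range on the log2 scale, above Dixon's 95% critical value for 4 samples. It was 1 of 36 groups of 4 cultures examined (9 genes in 4 groups), and chance marks about 1 in 20. Replicate 1 was also the lowest untreated ΔIEC culture for Egfr, Areg, Ereg, Hbegf, Tgfa and Btc, at 40.9, 114, 1.41, 15.0, 42.98 and 36.4 CPM, and not for Erbb2 or Erbb3.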

How the results depend on the processing

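Over the 9 genes, 5 comparisons and all alternatives, 813 log2 fold changes kept their direction and side of the threshold, 49 lost a call, 25 gained one and 22 changed sign, each of the 22 in a change that was not called. With the organoid line as replicate block the counts of genes called stayed within 1.5 times, and the block changed the calls of Ereg in fl/fl (1.07, adjusted p = 1.96e-07) and in ΔIEC (1.24, adjusted p = 4.22e-05) and of Btc in ΔIEC organoids (0.51, adjusted p = 2.63e-04) and no other. With cultures of a line summed, the number called went from 7 to 2 for IL-22 in fl/fl, from 6 to 1 in ΔIEC, from 1 to 0 between untreated genotypes and from 4 to 0 between treated ones, in a design with 2 samples a group. Without a filter on low counts, 3 genes were called between untreated genotypes (Ereg, Areg and Btc), and the cause was not tested. At an adjusted p under 0.05 another set of 3 was called there (Ereg, Erbb2 and Areg). With a culture or line left out, the number called was 1 to 8 for IL-22 in ΔIEC, 0 to 2 between untreated and 1 to 6 between treated genotypes. Sign changes under these omissions gave ranges of -0.17 to 0.17 for Erbb2 with IL-22 in ΔIEC organoids, and for the interaction of -0.10 to 0.26 for Erbb2, -0.23 to 0.10 for Erbb3, -0.40 to 0.0017 for Areg, -0.075 to 0.74 for Ereg, -0.64 to 0.19 for Hbegf and -0.35 to 0.021 for Tgfa. Between untreated genotypes they were -0.17 to 0.26 for Egfr and -0.89 to 0.045 for Hbegf. Thinning to the smallest library gave -0.27 for the interaction of Ereg and -0.025 for Egfr between untreated genotypes. Depth limits Ereg most, with 6 to 29 counts in untreated ΔIEC cultures.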
